A study of Mus musculus with 24 samples.

Results

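The E proteins Tcf4, Tcf3 and Tcf12, the Id proteins Id1, Id2 and Id3, and the zinc finger factors Zeb1 and Zeb2 were followed through dendritic cells of the mouse spleen. These 8 genes were taken by symbol from the 39017 genes of an RNA-seq read count table, with earlier results of these data known. All 8 passed the filter on low counts that left 18093 genes for testing. The study profiled flow-sorted dendritic cells from mice with and without an activating mutation of Flt3, the receptor of a cytokine that drives dendritic cell development. Every mouse was of the strain C57BL/6 x FVB/N F1. The 12 control libraries came from Flt3 +/+ mice (WT), and the other 12 from Flt3 ITD/+ mice (ITD), which carry 1 allele with an internal tandem duplication and 1 normal allele. The labels name 5 sorted subsets: PDC (plasmacytoid dendritic cells), canonical CD8+ cells (C_CD8), non-canonical CD8+ cells (NC_CD8), Esam-hi CD11b+ cells (Esamhi) and Esam-lo CD11b+ cells (Esamlo). Each subset has 2 libraries per genotype, or 3 for the CD8+ subsets, from independent experiments given as batches A to D. PDC were sorted in batches A and B, both CD8+ subsets in B, C and D, and both CD11b+ subsets in C and D, so that a WT library always has an ITD library of its own subset and batch (12 pairs). For age, sex, sort gates and the number of mice behind a library, nothing is stated in the labels.

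E proteins are basic helix-loop-helix (HLH) transcription factors that bind, as dimers, short DNA sequences called E boxes. Id proteins carry the HLH dimerization domain but no DNA-binding region, so an E protein bound by an Id protein is kept off DNA. In the dendritic cell lineage, Tcf4 (also known as E2-2) is required for plasmacytoid dendritic cells (pDCs), the main producers of type I interferon, whereas Id2 is required for the cross-presenting conventional dendritic cells called cDC1, which carry CD8 in the spleen. Zeb1 and Zeb2 are repressors that bind E box-like sequences, and Zeb2 is known to be needed for pDCs and the other conventional class, cDC2, and to repress Id2.

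E boxes have the form CANNTG, and the stretches shown next lie upstream of the RefSeq start of Id2 and Zeb2, the inhibitor and the repressor with the widest range over the subsets, and of Tcf12, an E protein that was high in PDC. Bases that GENCODE M21 counts as exon were left out. The Id2 stretch lies inside the gene as GENCODE annotates it, in an intron of a longer transcript that starts farther upstream. The sequences are from RefSeq on GRCm38.p6 and are written 5′ to 3′ on the strand of the gene, with any CANNTG in capitals. They cover chr12:25096254-25096342 (Id2), chr9:72111872-72112069 (Tcf12) and chr2:45117443-45117692 (Zeb2), all on the minus strand.
Id2: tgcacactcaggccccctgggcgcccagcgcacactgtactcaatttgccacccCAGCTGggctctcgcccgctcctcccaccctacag
Tcf12: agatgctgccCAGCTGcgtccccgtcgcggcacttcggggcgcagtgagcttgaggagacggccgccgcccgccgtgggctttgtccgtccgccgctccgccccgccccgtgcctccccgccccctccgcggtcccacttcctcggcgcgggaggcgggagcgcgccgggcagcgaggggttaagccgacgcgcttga
Zeb2: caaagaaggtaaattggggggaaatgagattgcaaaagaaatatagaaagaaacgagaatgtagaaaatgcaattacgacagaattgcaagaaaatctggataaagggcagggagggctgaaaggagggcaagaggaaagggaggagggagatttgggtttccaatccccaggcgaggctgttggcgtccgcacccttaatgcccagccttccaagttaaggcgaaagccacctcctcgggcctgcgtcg
Of the 250 bases before the RefSeq start, Id2 and Tcf12 each held 1 such box, CAGCTG, which reads the same on both strands, 196 and 240 bases before the start. Tcf3 held 1, CACTTG, 54 bases before its start, and none was found in the windows of Id3 and Zeb2. Over 27025 promoters of the same length, 66.05% held at least 1 CANNTG. The form that Zeb and E proteins are best known to bind, CAGGTG or its reverse CACCTG, was in none of these 5 windows and in 17.1% of all promoters. These matches describe the letters only.

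In the GENCODE M21 annotation (build GRCm38, the same as mm10), Tcf4 lies on chromosome 18 at 69343356-69689079 on the plus strand, and Zeb1 on the same chromosome and strand at 5591860-5775467. Tcf3 lies on chromosome 10 at 80409514-80433647 and Tcf12 on chromosome 9 at 71842688-72111871, both on the minus strand. Id1 lies on chromosome 2 at 152736251-152737410 (plus), Id2 on chromosome 12 at 25093799-25097140 (minus), and Id3 on chromosome 4 at 136143497-136145755 (plus). Zeb2 lies on chromosome 2 at 44983632-45117395 on the minus strand and overlaps the antisense gene Zeb2os and the small genes Mir5129 and Gm27761, and Zeb1 overlaps Gm10125 on the opposite strand. Whether the counting used strand is not given in the sources used here, so reads of these partners cannot be told apart. The partners of Zeb2 together held 1112 reads against 90193 of Zeb2, and Gm10125 held 597 against 25731 of Zeb1. The processed pseudogene Gm6175 on chromosome X at 100585009-100585408 shares 2.28% of its 50-base stretches exactly with Id2. Its reads came to 5.55% to 6.48% of those of Id2 in the 10 groups, so a small part of the Id2 signal may be assigned to it. Counts per gene do not separate isoforms, such as the long and short forms of Tcf4 or the E12 and E47 forms of Tcf3.

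Read counts summed to 11197145 to 22248404 per library, and CPM are counts scaled to a common library size (edgeR's cpm with TMM factors). The labelled subsets were checked with markers of each class: 10 pDC markers summed to 11820 to 13870 CPM in PDC and at most 799.7 elsewhere, 10 cDC1 markers to 8565 to 13030 in C_CD8, and 10 cDC2 markers to 2446 to 2988 in the CD11b+ subsets. The cDC2 markers were less specific, since PDC held them at 1890 to 2297 CPM. The cDC1 list holds Cd8a, and the cDC2 list holds Esam and Itgam, which encodes CD11b. These antigens name the sorted subsets, so part of both sums may be set by the sort. The NC_CD8 libraries held each list below the subset it marks, with pDC markers at 464.8 to 799.7, cDC1 markers at 1124 to 2756 and cDC2 markers at 1411 to 2082 CPM. PDC libraries of batch B stood apart from those of batch A: fibroblast markers summed to 175 (WT) and 88.3 (ITD) CPM against 1.60 and 0.706, and the Y-linked gene Ddx3y was at 0.197 and 0.161 against 212 and 158. In the CD8+ libraries of batch B, Ddx3y was at 178 (WT) and 148 (ITD) CPM in C_CD8 and 217 and 189 in NC_CD8. PDC of batch B thus differed from the other subsets of their own batch too. The labels do not say whether the subsets of a batch came from the same mice. Gene counts do not show which reads carry the duplication, so the Flt3 genotype was not checked.

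The first question is how the 8 genes are distributed over the subsets of WT mice. All 8 differed among the 5 subsets (edgeR quasi-likelihood F test, Benjamini-Hochberg adjusted p over all tested genes below 0.05), where 46.7% of all genes did. Of the 80 tests of a gene between 2 WT subsets, 37 passed, and the comparisons share their groups. Between C_CD8 and PDC, all 8 genes passed (37.8% of all genes), 3 higher in C_CD8 (Id1, Id2, Zeb1) and 5 lower. Between NC_CD8 and PDC 5 passed (26.4% of all genes), and between NC_CD8 and C_CD8 4 passed (25.0%). Esamhi and Esamlo each differed from PDC in 6 of the genes (30.6% and 30.2% of all genes) and from C_CD8 in 3 (23.5% and 16.0%). Tcf4 was the 1 gene that passed between NC_CD8 and Esamhi (6.34% of all genes) or Esamlo (4.08%). Between the CD11b+ subsets no member passed (0.658% of all genes), 3 had an unadjusted p under 0.05 (Tcf4, Id1 and Id3), and DESeq2 called 0 (2.89% of all genes). No share of all genes at that unadjusted level is given, here or below, so such counts are not read as a result. With the experiment batch as a block, Id1 and Id3 passed there (2 members, 6.36% of all genes). With that block, 7 members passed between C_CD8 and PDC (53.0% of all genes), 6 between NC_CD8 and PDC (43.5%), 7 between Esamhi and PDC (42.8%), 6 between Esamlo and PDC (44.8%) and 5 between NC_CD8 and C_CD8 (42.0%). It called 5 between each CD11b+ subset and C_CD8 (35.5% and 28.5%), 4 between Esamhi and NC_CD8 (16.7%) and 3 between Esamlo and NC_CD8 (15.1%). Batch A held PDC alone, so with this block differences from PDC rest mainly on the PDC libraries of batch B. Those PDC libraries differed in the Y-linked Ddx3y from the CD8+ libraries of their own batch, as given above. The CD11b+ subsets share no batch with PDC, so their blocked differences from PDC run indirectly through the CD8+ subsets. Every n below is 2 libraries per genotype for PDC, Esamhi and Esamlo and 3 for C_CD8 and NC_CD8. In such bulk samples, fewer cells of a type and less RNA per cell cannot be told apart.

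Among the E proteins, Tcf4 had by far the widest range. Its CPM in WT PDC were 1101 and 1174 (batches A and B), in NC_CD8 433.8, 417.8 and 571.7 (B, C and D), in Esamlo 89.0 and 120 (C and D), in Esamhi 80.6 and 69.6 (C and D), and in C_CD8 30.2, 26.9 and 34.3 (B, C and D). No libraries of different subsets overlapped, and the order of the subsets was the same in every batch that held them. Mean CPM ± SD fell from 1137 ± 51.8 in PDC through 474 ± 84.6 in NC_CD8, 105 ± 22.0 in Esamlo and 75.1 ± 7.77 in Esamhi to 30.5 ± 3.68 in C_CD8, a 37.3-fold span. Each step of this order passed the test except that from Esamlo to Esamhi, a log2 difference of 0.48 ± 0.22 (SE) with an adjusted p of 0.485 and a 95% interval of 0.05 to 0.90. C_CD8 lay below PDC by a log2 difference of -5.22 ± 0.22 (adjusted p = 9.44e-12). NC_CD8 lay above C_CD8 by 3.96 ± 0.20 on the log2 scale (adjusted p = 7.48e-10), with 3.84, 3.95 and 4.06 in batches B, C and D. Tcf4 in NC_CD8 was 2.40-fold below PDC, a log2 difference of -1.26 ± 0.19 (adjusted p = 7.77e-05), while the pDC markers summed to 657.9 to 799.7 CPM in WT NC_CD8 and to 12500 and 13870 in WT PDC.

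Tcf12, the E protein also called HEB, was high in PDC alone. Its CPM in WT PDC were 204 and 154 (A and B), and all 10 libraries of the other WT subsets lay between 27.4 and 53.3. The step from PDC to NC_CD8, a log2 difference of 2.02 ± 0.20, passed the test (adjusted p = 4.80e-07), and no step among the other 4 subsets did. With the batch block, Esamhi was also below C_CD8 (log2 difference -0.55 ± 0.14, adjusted p = 0.00474) and below NC_CD8 (-0.63 ± 0.14, adjusted p = 0.00424).

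Tcf3, which encodes E12 and E47, was the most even of the 8 genes across subsets. The WT libraries ran from 35.2 CPM (Esamlo, batch D) to 95.0 (PDC, batch B), and PDC of batch A, at 65.2, was close to the NC_CD8 libraries at 58.1, 61.1 and 59.4. PDC lay above C_CD8, Esamhi and Esamlo, with log2 differences of -0.59 ± 0.19, -0.68 ± 0.22 and -0.93 ± 0.22 against PDC (adjusted p = 0.0237, 0.0221 and 0.00314). These calls rest on single libraries. Without the WT PDC library of batch B the adjusted p were 0.315, 0.280 and 0.0625. They were also lost without C_CD8 of batch C or D (0.0523 and 0.0680), without Esamhi of batch C or D (0.0725 and 0.134) and without Esamlo of batch D (0.0678), each for its own comparison. The F test over the subsets was lost without the same PDC library (adjusted p = 0.139). With the batch block, PDC was also above NC_CD8 (NC_CD8 minus PDC -0.74 ± 0.14, adjusted p = 0.000532), and Esamlo lay below C_CD8 (-0.35 ± 0.12, adjusted p = 0.0406) and NC_CD8 (-0.51 ± 0.12, adjusted p = 0.0108).

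**Figure D1:**
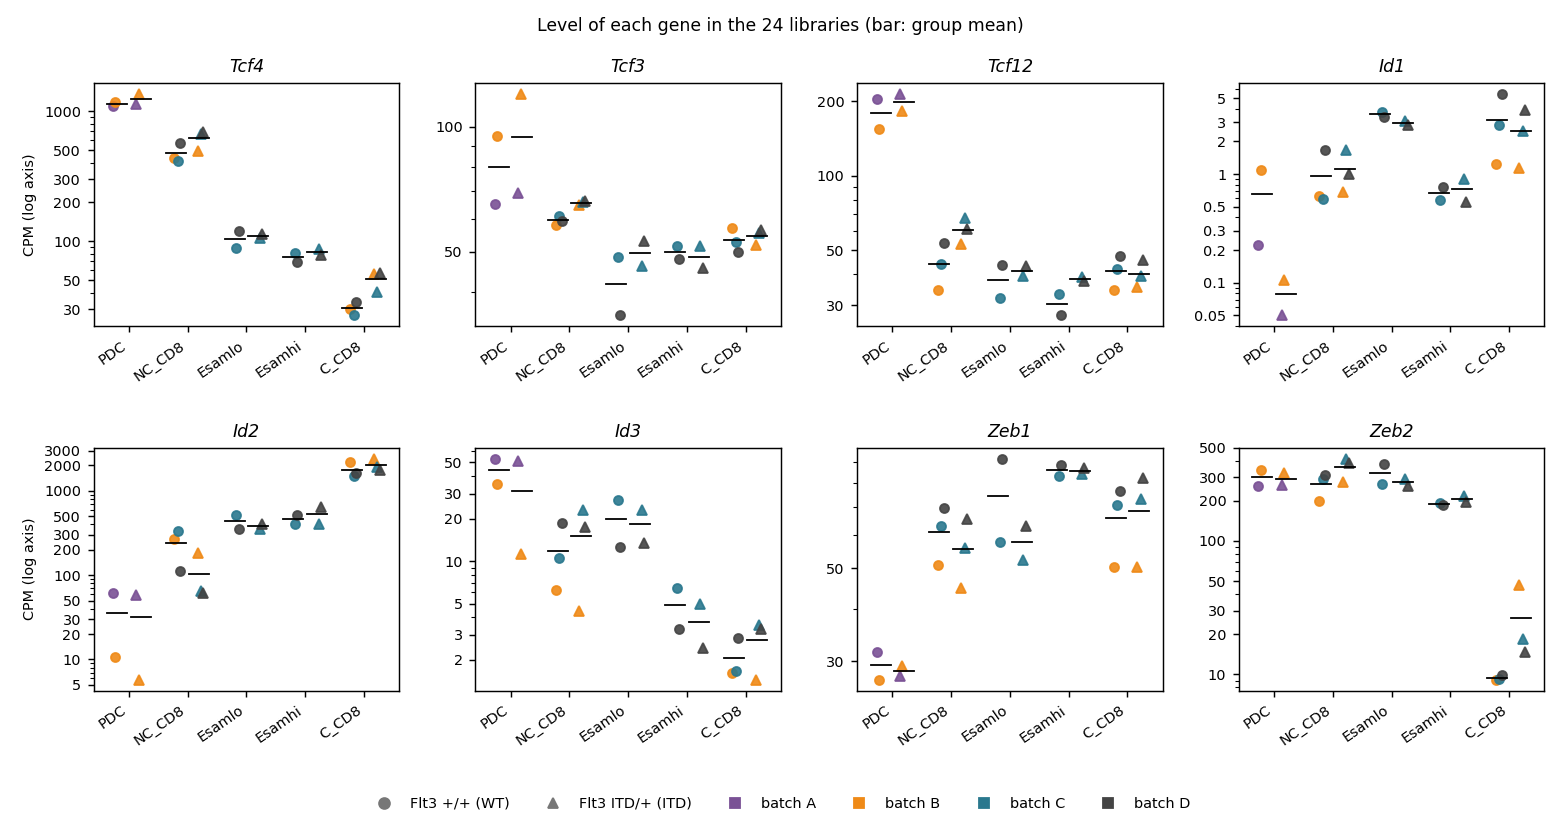
Each panel shows the CPM (log axis) of 1 of the 8 genes in the 24 libraries, by sorted subset; circles are WT and triangles ITD, colours are batches and the bars are group means. Tcf4 falls from 1137 CPM in WT PDC to 30.5 in WT C_CD8, Id2 runs the opposite way from 35.8 to 1767, and Zeb2 is low in C_CD8 (9.43 in WT) against 189 to 322 in the other WT subsets.

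Id2 ran opposite to Tcf4. Its CPM in WT C_CD8 were 2172, 1504 and 1625 (B, C and D), in Esamhi 407 and 511 and in Esamlo 515 and 354 (C and D). They were 265, 338 and 112 in NC_CD8 (B, C and D) and 61.1 and 10.6 in PDC (A and B). C_CD8 lay above and PDC below every library of the other subsets, NC_CD8 lay below both CD11b+ subsets, and the CD11b+ subsets overlapped. Mean CPM were 1767 ± 356 in C_CD8, 459 ± 73.6 in Esamhi, 434 ± 114 in Esamlo, 238 ± 115 in NC_CD8 and 35.8 ± 35.7 in PDC. C_CD8 exceeded PDC by 5.62 ± 0.94 on the log2 scale (adjusted p = 0.000126), and NC_CD8 lay below C_CD8 by a log2 difference of -2.89 ± 0.69 (adjusted p = 0.00468), with -3.03, -2.15 and -3.85 in batches B, C and D. NC_CD8, Esamhi and Esamlo exceeded PDC by 2.73 ± 0.81, 3.68 ± 0.87 and 3.60 ± 0.87 (adjusted p = 0.0173, 0.00356 and 0.00421). Esamhi and Esamlo minus C_CD8 were -1.95 ± 0.77 and -2.02 ± 0.77 (adjusted p = 0.0775 and 0.0860), and with the batch block these passed (-1.70 ± 0.39 and -1.80 ± 0.39, adjusted p = 0.00287 and 0.00258), as did Esamhi minus NC_CD8 (1.19 ± 0.37, adjusted p = 0.0371).

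The size of the Id2 differences from PDC depends on which PDC library is used. C_CD8 minus PDC was 7.39 without the WT PDC library of batch A and 4.81 without that of batch B. NC_CD8 minus PDC was 4.50 and 1.95 in turn, and without batch B its adjusted p was 0.166. Esamhi minus PDC was 5.44 and 2.90, and Esamlo minus PDC 5.36 and 2.82, with the call kept. The fibroblast markers and Ddx3y differed between the same libraries, and their part in the result was not tested.

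Id3 was the Id gene that was highest in PDC. WT PDC held 53.1 and 35.1 CPM (A and B), Esamlo 27.0 and 12.5 (C and D), NC_CD8 6.26, 10.5 and 18.6 (B, C and D), Esamhi 6.46 and 3.29 (C and D), and C_CD8 1.61, 1.68 and 2.86 (B, C and D). PDC lay above every other library and C_CD8 below every other, with overlaps between the 3 subsets in the middle. Id3 in C_CD8 minus PDC was -4.42 ± 0.72 on the log2 scale (adjusted p = 9.16e-05), and in Esamhi minus PDC -3.17 ± 0.79 (adjusted p = 0.00500; 0.0727 without Esamhi of batch D). NC_CD8 and Esamlo exceeded C_CD8 by 2.51 ± 0.65 and 3.27 ± 0.70 (adjusted p = 0.00856 and 0.00351), the latter 2.60 without Esamlo of batch C. NC_CD8 minus PDC was -1.91 ± 0.65 (adjusted p = 0.0373) and was lost without WT PDC of batch A (0.181) or B (0.0614) or WT NC_CD8 of batch B (0.119) or C (0.0989). With the batch block, Esamlo also passed against PDC (-1.90 ± 0.60, adjusted p = 0.0167) and Esamhi (2.00 ± 0.50, adjusted p = 0.0251), and Esamhi lay below NC_CD8 (-1.69 ± 0.48, adjusted p = 0.0240).

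Id1 was near the lower end of detection, with 696 reads over all 24 libraries. The read counts behind WT PDC were 5 and 22, and its CPM were highest in Esamlo (3.75 and 3.32) and C_CD8 (1.25, 2.83 and 5.42 in B, C and D). Id1 exceeded PDC by 2.28 ± 0.74 in C_CD8 (adjusted p = 0.0217) and by 2.44 ± 0.78 in Esamlo (adjusted p = 0.0246) on the log2 scale, and Esamhi lay below C_CD8 (-2.24 ± 0.75, adjusted p = 0.0372). With the batch block, both differences from PDC were lost (0.63 and 0.57, adjusted p = 0.416 and 0.532) while Esamhi minus C_CD8 was kept (adjusted p = 0.00111). Within batch B, the 1 batch that held both, C_CD8 minus PDC was 0.19, between libraries that differed in Ddx3y. Each of the 3 unblocked calls was also lost on leaving out 1 library: C_CD8 minus PDC without WT PDC of batch A (1.54, adjusted p = 0.188) or WT C_CD8 of batch D (1.65, adjusted p = 0.0960), Esamlo minus PDC without WT PDC of batch A (adjusted p = 0.184) or either WT Esamlo library, and Esamhi minus C_CD8 without either WT Esamhi library or WT C_CD8 of batch C or D. Without WT PDC of batch B, C_CD8 minus PDC was 3.75 and Esamlo minus PDC 3.93. With the batch block, C_CD8 was above NC_CD8 (NC_CD8 minus C_CD8 -1.61 ± 0.41, adjusted p = 0.00505) and Esamlo above Esamhi (2.42 ± 0.52, adjusted p = 0.0119) and NC_CD8 (1.56 ± 0.46, adjusted p = 0.0326).

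Zeb2 split the subsets differently from both Tcf4 and Id2. C_CD8 of WT mice held 9.16, 9.25 and 9.89 CPM (B, C and D), and every other WT library held 186 or more. These were 257 and 343 in PDC (A and B), 201, 290 and 314 in NC_CD8 (B, C and D), 268 and 377 in Esamlo, and 191 and 186 in Esamhi (C and D). C_CD8 minus PDC was -4.99 ± 0.38 on the log2 scale (adjusted p = 1.06e-08), and NC_CD8, Esamhi and Esamlo exceeded C_CD8 by 4.83 ± 0.36, 4.32 ± 0.37 and 5.09 ± 0.38 (adjusted p = 6.49e-08, 2.11e-07 and 7.50e-08). The C_CD8 to NC_CD8 difference was 4.44, 4.95 and 4.97 in batches B, C and D. No difference among the other 4 subsets passed the test: NC_CD8 minus PDC was -0.16 with a 95% interval of -0.83 to 0.51.

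Zeb1 varied over a much smaller range and was low in PDC (31.6 and 27.1 CPM), with 50.3 to 91.5 CPM in all other WT libraries. The log2 differences from PDC were 1.16 ± 0.24 in C_CD8, 1.06 ± 0.24 in NC_CD8, 1.54 ± 0.26 in Esamhi and 1.34 ± 0.26 in Esamlo (adjusted p = 0.00108, 0.00334, 0.000194 and 0.000757). The NC_CD8 difference was 0.94 with an adjusted p of 0.0544 without the WT PDC library of batch B. No difference in Zeb1 among the 4 subsets other than PDC passed the test, with or without the batch block.

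Levels can be set side by side between genes only per length, here as CPM per kilobase of merged exons. On that scale Tcf4 made up 57.0% ± 1.21 of the 3 E proteins in WT PDC and 49.4% ± 3.84 in NC_CD8, but 23.1% ± 6.24 in Esamlo, 16.1% ± 0.566 in Esamhi and 6.55% ± 0.839 in C_CD8. Tcf3 was the leading E protein in the last 3, at 62.1% ± 10.4, 72.5% ± 1.34 and 77.7% ± 3.37. Id2 made up 99.4% ± 0.356 of the 3 Id genes in WT C_CD8, 98.2% ± 0.866 in Esamhi, 92.8% ± 1.16 in Esamlo and 90.5% ± 9.51 in NC_CD8. In PDC the leading Id gene was Id3, at 66.4% ± 17.6 against 31.5% ± 20.0 for Id2. Zeb2 made up 83.7% ± 4.23 of the Zeb pair in PDC, 69.1% ± 1.76 in NC_CD8, 69.2% ± 1.77 in Esamlo and 53.1% ± 1.55 in Esamhi, against 7.04% ± 1.32 in C_CD8. These shares move with the length assigned to a gene: by the longest coding transcript, Tcf4 made up 70.5% of the E proteins in PDC and 12.6% in C_CD8, and its exons in the annotation come to 27.4 kilobases against 8.58 in that transcript.

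**Figure D2:**
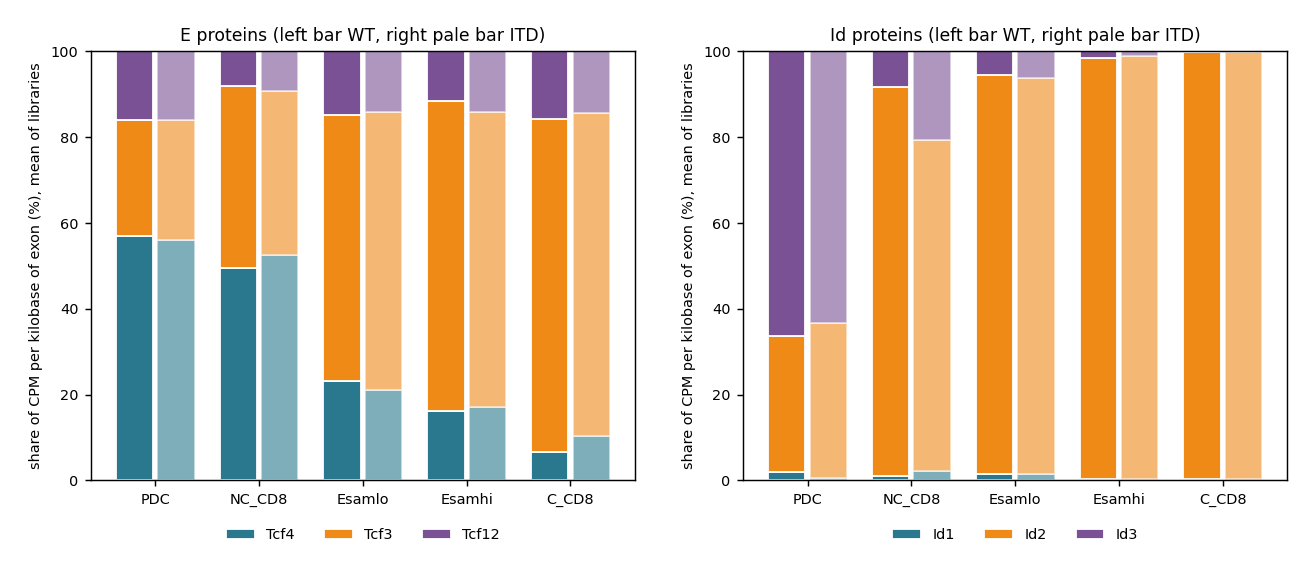
Stacked bars show, for each subset, the share (%) of CPM per kilobase of exon that each gene takes among the 3 E proteins (left) and the 3 Id proteins (right), as the mean over libraries; the left bar of a pair is WT and the pale right bar ITD. Tcf4 takes 57.0% of the E proteins in WT PDC and 6.55% in WT C_CD8, and Id2 takes 31.5% and 99.4% of the Id proteins in the same subsets.

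The balance of Tcf4 to Id2, the log2 ratio of their CPM per kilobase in 1 library, was chosen as a description and given no test. In WT it was 0.68 and 3.30 in PDC (A and B), -2.78, -3.18 and -1.14 in NC_CD8 (B, C and D), -6.02 and -5.05 in Esamlo, -5.82 and -6.36 in Esamhi (C and D), and -9.66, -9.29 and -9.06 in C_CD8 (B, C and D). PDC lay above 0 in every library, NC_CD8 lay between PDC and the CD11b+ subsets without overlap, the CD11b+ subsets overlapped, and C_CD8 was lowest. The means were 1.99 ± 1.85, -2.37 ± 1.08, -5.54 ± 0.69, -6.09 ± 0.38 and -9.34 ± 0.30 in the same order. The WT PDC libraries of batches A and B, which differ most in this ratio, held Id2 at 61.1 and 10.6 CPM and Tcf4 at 1101 and 1174.

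**Figure D3:**
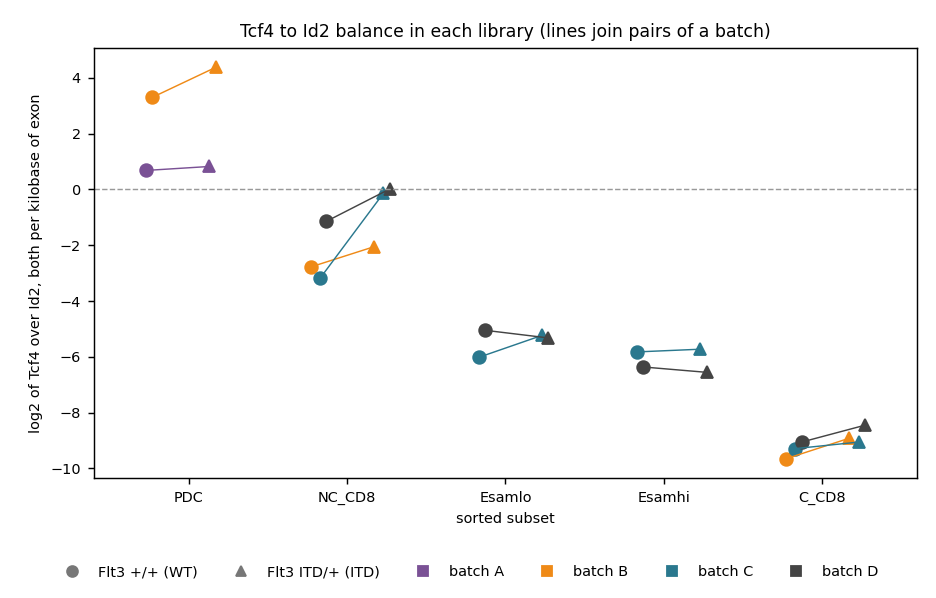
The log2 ratio of Tcf4 to Id2, both per kilobase of exon, is plotted for each library by sorted subset; circles are WT, triangles ITD, colours are batches and lines join the WT and ITD library of a batch. PDC libraries lie above 0, C_CD8 libraries between -9.66 and -8.45, and the NC_CD8 libraries between -3.18 and 0.02.

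Lists of genes known to depend on or work with these factors were counted beside the 8. They were chosen with the biology of these subsets in view, so their direction is no independent evidence. Every pDC marker used above to check the subsets is also in the list linked to Tcf4. All cDC1 markers but Ppt1 and Gcsam, with Cd8a among them, are also in the list linked to Id2. Of 20 genes linked to Tcf4 in pDCs, all 20 were lower in WT C_CD8 than in PDC (18.2% of all genes were), with a median log2 difference of -6.25 against 0.03 over all genes tested. The largest were Dntt (-11.09), the terminal transferase, and Siglech (-9.64), a pDC surface receptor. Between NC_CD8 and C_CD8, 14 of the 20 were higher in NC_CD8 and 1 lower (12.5% and 12.6% of all genes), with a median of 2.45 against -0.00. Among them were Siglech (5.31), the adaptor Blnk (4.69) and Spib (4.22), a transcription factor of pDCs. Between NC_CD8 and PDC, 17 of the 20 were lower in NC_CD8 (12.7% of all genes), with a median of -3.17.

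Of 16 genes linked to Id2 in conventional dendritic cells, 14 were higher and none lower in WT C_CD8 than in PDC (19.5% and 18.2% of all genes), with a median log2 difference of 3.55. They included the endosomal receptor Tlr3 (10.90) and the chemokine receptor Xcr1 (9.43). Between NC_CD8 and C_CD8, 2 were higher and 10 lower (12.5% and 12.6% of all genes), with a median of -1.40, and the largest falls were in Xcr1 (-3.73) and Tlr3 (-3.25).

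Of 21 other HLH and cofactor genes, 14 were tested, and 1 was higher and 3 lower in C_CD8 than in PDC (19.5% and 18.2% of all genes), with a median log2 difference of -0.51, so the lower share was close to that of all genes. These were the corepressor Ctbp2 (3.25), which Zeb proteins recruit, its relative Ctbp1 (-0.78), and the adaptors of HLH complexes Lmo2 (-1.49) and Ldb1 (-0.63). Of 17 tested genes that E proteins are known to activate in lymphocytes, 1 was higher and 6 lower in C_CD8 than in PDC (19.5% and 18.2% of all genes, median -0.35), including Il7r (-5.93), the receptor of interleukin 7, and Ptcra (-5.83), the pre-T cell receptor alpha chain. Dntt, given above with the genes linked to Tcf4, was among the lower genes too. That list also holds Ptcra, so the lists are not separate. In NC_CD8 against C_CD8, 3 were higher and none lower (12.5% and 12.6% of all genes, median 1.56): Cd79b (3.43), Il7r (2.48) and Notch1 (1.46). Of 23 tested genes of BMP and TGF-beta signalling, the pathway best known to induce Id genes, 3 were higher and 5 lower in C_CD8 than in PDC, where 19.5% and 18.2% of all genes were, with a list median of -0.20. In NC_CD8 against C_CD8, 9 were higher and 1 lower (12.5% and 12.6% of all genes, median 0.26), led by the ligand Bmp2 (4.78) and the inhibitor Smad7 (2.21). Of 20 early response genes, which cell handling can induce, 11 were higher and 1 lower in C_CD8 than in PDC (19.5% and 18.2% of all genes, median 1.07), and 4 were higher and 1 lower in NC_CD8 than in C_CD8 (12.5% and 12.6%, median -0.11).

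The genes whose log2 CPM were most like those of Tcf4 over the 24 libraries, among 11280 genes with a mean of at least 5 CPM, were Man2a2, Hpse, Snx18, Snx9 and Syne2 (Pearson r from 0.97 to 0.98). Man2a2 encodes a Golgi mannosidase and Hpse heparanase, and Man2a2 fell from 437 CPM in WT PDC to 173 in NC_CD8 and 33.3 in C_CD8. The most opposite genes were Lipa, Epb41l2 and Glrx (r from -0.98 to -0.97). For Id2, the highest was the pseudogene Gm6175 (r = 0.998), followed by C9orf72, Mtpn, Gm17228 and Arpin (r about 0.955 for each). For Zeb2 they were Fcer1g, S100a6, Cybb, Fgr and Cd209a (r from 0.97 to 0.98). Fcer1g is the signalling chain of Fc receptors and Cybb the phagocyte oxidase, which fell from 1572 CPM in WT PDC to 20.9 in C_CD8. Among the members themselves, r was -0.92 for Tcf4 with Id2, 0.77 for Tcf4 with Tcf12, 0.76 for Tcf4 with Id3, -0.72 for Id2 with Zeb2 and -0.26 for Zeb1 with Zeb2. These r describe 24 libraries that fall into 5 subsets and share subset, batch and depth, and no test was made of them.

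The second question is what the Flt3 ITD allele did to the 8 genes within each subset. In the unblocked fit none of the 40 tests of a gene within a subset passed (edgeR quasi-likelihood test). Of all genes, 0.0608% passed in PDC, 0.0166% in C_CD8, 0.31% in NC_CD8, 0.0% in Esamhi and 0.00553% in Esamlo. The number of members with an unadjusted p under 0.05 was 1 in PDC, 2 each in C_CD8 and NC_CD8 and 0 in both CD11b+ subsets, with no share of all genes to set beside it. DESeq2 called 2, Tcf4 and Zeb2 in C_CD8 (0.582% of all genes there), and none in PDC (0.0981%), NC_CD8 (1.31%), Esamhi or Esamlo (0.00727% each). WT and ITD libraries of a batch deviated together, and the fit with the 12 pairs as blocks called 5 of the 40. These were Tcf4 and Zeb2 in C_CD8 (1.23% of all genes) and Tcf4, Tcf12 and Id2 in NC_CD8 (4.79%), and none in PDC (0.249%), Esamhi or Esamlo (0.0497% each). A p that misses the threshold does not show that the alleles act alike, and intervals from the unblocked fit stand beside the differences named.

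Tcf4 was higher in ITD in most pairs. In C_CD8 it was 30.2, 26.9 and 34.3 CPM in WT and 55.9, 40.5 and 57.3 in ITD (B, C and D). All 3 ITD libraries lay above all 3 WT libraries, with pair differences of 0.89, 0.59 and 0.74 on the log2 scale. No share of all genes whose WT and ITD libraries lie apart is given, here or below, so such separation is not read as a result. The fitted difference was 0.75 ± 0.18 (95% interval 0.40 to 1.10) with an adjusted p of 0.203 without the block, 0.00472 with it (0.74 ± 0.10) and 0.0213 by DESeq2 (0.76). The mean ITD level in C_CD8, 51.2 CPM, was still below that of every other WT subset. In NC_CD8, Tcf4 was 433.8, 417.8 and 571.7 CPM in WT and 492.5, 665.1 and 698.0 in ITD, higher within each batch but with overlapping groups. That difference was 0.38 ± 0.18 (0.04 to 0.73, adjusted p = 0.660) without the block and 0.38 ± 0.10 with it (adjusted p = 0.0438). The blocked call was lost without most single pairs, with adjusted p up to 0.345. The differences in PDC, Esamhi and Esamlo were 0.14, 0.13 and 0.06, with 95% intervals of -0.29 to 0.56, -0.30 to 0.55 and -0.36 to 0.49.

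Over all 12 pairs, Tcf4 was higher in ITD in 11, with pair differences from -0.08 to 0.89 and a median of 0.22 on the log2 scale. Of all genes tested, 3.66% were higher in ITD in at least 11 of the 12 pairs. Averaged over the 5 subsets, the Tcf4 difference was 0.29 ± 0.09 without the block (95% interval 0.12 to 0.47, adjusted p = 0.230) and 0.29 ± 0.05 with it (adjusted p = 0.00593). In the unblocked fit 0 of the 8 genes passed on average (0.359% of all genes), 3 had an unadjusted p under 0.05, and DESeq2 called 0 (1.7% of all genes). With the pair block 2 passed (6.83% of all genes), Tcf4 and Tcf12 (0.21 ± 0.05, adjusted p = 0.0331). The averaged Tcf4 call was kept on leaving out each of the 12 pairs in turn, whereas that of Tcf12 was lost without 10 of them (adjusted p from 0.0511 to 0.126). Whether the difference itself varied among the subsets was tested too, and no member passed, with an adjusted p of 0.212 for Tcf4, 0.276 for Zeb2 and 0.361 for Id2 with the pair block (0.304% of all genes passed) and 0 members without it (0.0% of all genes). Without the block, 1 of the 8 had an unadjusted p under 0.05 in that test, and DESeq2 called 0 (0.262% of all genes).

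**Figure D4:**
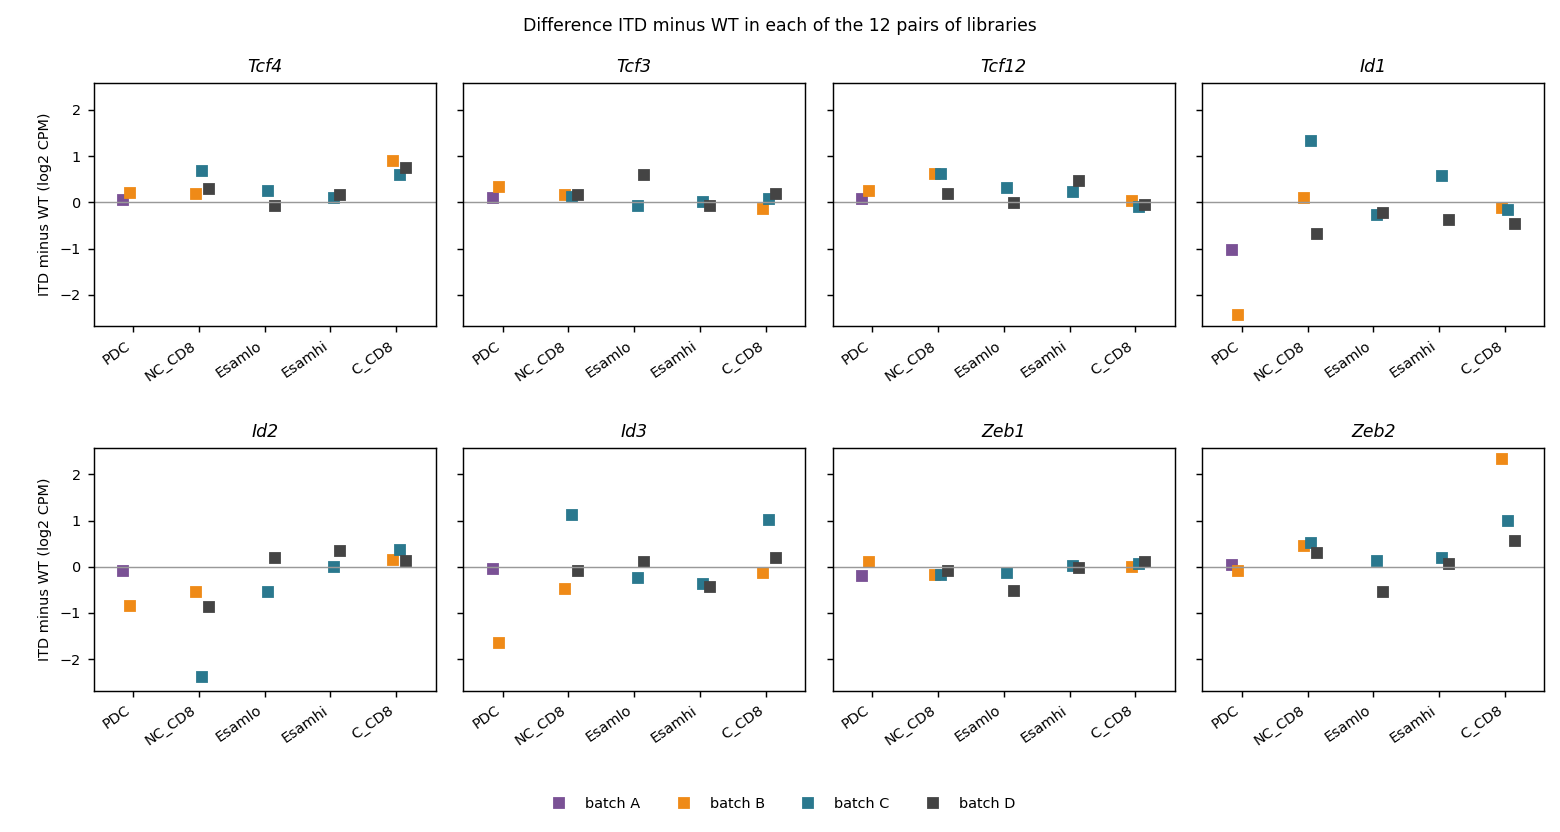
Each square is 1 of the 12 pairs, plotted as the ITD minus WT difference in log2 CPM of 1 gene, by sorted subset and coloured by batch; the grey line marks 0. Tcf4 lies above 0 in 11 of the 12 pairs, Zeb2 stands highest in C_CD8 (2.34, 0.98 and 0.56) and Id2 lowest in NC_CD8 (-0.54, -2.38 and -0.87).

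Zeb2, which was low in canonical CD8+ cells of WT mice, was higher there in ITD. Its CPM in C_CD8 were 9.16, 9.25 and 9.89 in WT and 46.9, 18.4 and 14.6 in ITD (B, C and D). The WT libraries were nearly equal, and each ITD library lay above them, most of all in batch B. The log2 difference was 1.49 ± 0.32 (95% interval 0.86 to 2.12) with an adjusted p of 0.156 without the block, 0.0267 with it (1.33 ± 0.26) and 0.00278 by DESeq2 (1.50). The blocked call was lost without the batch B pair (0.79, adjusted p = 0.0826) or the batch C pair (1.50, adjusted p = 0.0645). The mean in ITD, 26.6 CPM, compared with 359 in ITD NC_CD8. Zeb2 was higher in ITD in 10 of 12 pairs, and its averaged difference was 0.36 ± 0.16 without the block (95% interval 0.05 to 0.66, adjusted p = 0.512) and 0.33 ± 0.11 with it (adjusted p = 0.103). No share of all genes is given for that number of pairs.

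Summed markers of cDC2, which are low in canonical CD8+ cells, were higher in ITD C_CD8 along with Zeb2, as were markers of other cell types. The 10 cDC2 markers summed to 89.7, 77.0 and 107 CPM in WT C_CD8 and to 252, 116 and 118.5 in ITD, with none of the 10 at 0 in any library. Sirpa, a defining surface protein of cDC2, was 26.5, 17.4 and 32.6 CPM in WT and 102, 34.0 and 38.1 in ITD. Itgam, which encodes CD11b, was not higher, at 11.2, 10.4 and 20.2 CPM in WT and 10.5, 10.6 and 8.36 in ITD. The 10 pDC markers summed to 128.4, 145.4 and 136.7 CPM in WT and 151.3, 171.1 and 187.5 in ITD. The 10 T cell markers summed to 53.2, 21.2 and 40.7 CPM in WT and 101, 45.2 and 68.8 in ITD, and the 10 monocyte markers to 959.3, 522.2 and 812.1 in WT and 1085, 764.6 and 902.1 in ITD. These 4 lists were higher in ITD in each batch. Red pulp macrophage markers were lower in ITD in batches C and D (352.2 and 412.1 CPM in WT, 256.5 and 189.0 in ITD). In batch B they were slightly higher (124.1 against 130.9). B cell markers were lower in batches B and C (447.9 and 539.2 CPM in WT, 372.0 and 486.5 in ITD) and higher in D (387.6 against 485.5). Plasma cell and cDC1 markers also went both ways over the batches. As a share of the NC_CD8 library of the same genotype and batch, Zeb2 in C_CD8 was 4.56%, 3.19% and 3.15% in WT and 17.0%, 4.43% and 3.78% in ITD, Sirpa 7.89%, 3.65% and 6.70% in WT and 20.5%, 5.05% and 5.47% in ITD. In both genes the batch B library of ITD stood highest. The pDC receptor Siglech was 2.12%, 3.18% and 2.41% of its NC_CD8 level in WT and 8.45%, 9.78% and 5.30% in ITD. In C_CD8 itself Siglech was 5.463, 6.755 and 7.03 CPM in WT and 9.54, 14.75 and 9.012 in ITD. In NC_CD8 it was 258.0, 212.5 and 291.5 CPM in WT and 112.9, 150.8 and 169.9 in ITD. The Siglech share thus rose in part because its NC_CD8 level was lower in ITD. The part of other sorted cells in the Zeb2 and Tcf4 differences was not tested.

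Id2 was lower in ITD in the non-canonical CD8+ cells. Its CPM in NC_CD8 were 265, 338 and 112 in WT and 182, 65.0 and 61.3 in ITD (B, C and D). ITD was lower in each batch, by log2 differences of -0.54, -2.38 and -0.87, but the groups overlapped, since the WT library of batch D lay below the ITD library of batch B. The fitted difference was -1.22 ± 0.65 (95% interval -2.49 to 0.06, adjusted p = 0.756) without the block and -1.25 ± 0.28 with it (adjusted p = 0.0244). The blocked call was lost without the batch C pair (-0.70, adjusted p = 0.105) or the batch D pair (-1.45, adjusted p = 0.0541). In C_CD8, Id2 was 2172, 1504 and 1625 CPM in WT and 2409, 1920 and 1786 in ITD, a log2 difference of 0.21 with a 95% interval of -1.05 to 1.46. In PDC, Esamhi and Esamlo the differences were -0.18, 0.21 and -0.20, with 95% intervals of -1.73 to 1.38, -1.33 to 1.74 and -1.74 to 1.34, and none passed. The unblocked PDC value changed sign with the libraries used. It was 1.59 without the WT library of batch A and -0.95 without that of batch B. Without the ITD library of batch A or B it was -2.63 and 0.68. Each of these fits breaks a pair, and Id2 in PDC differed widely between the batches. Within the pairs, ITD minus WT in PDC was -0.09 in batch A and -0.86 in batch B.

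Summed cDC1 markers were lower in ITD NC_CD8 along with Id2, as were markers of pDCs and of B, plasma, T and NK cells. The 10 markers, none of them at 0 in any of these libraries, summed to 1839, 2756 and 1401 CPM in WT NC_CD8 and to 1278, 1183 and 1124 in ITD (B, C and D). Xcr1, a defining receptor of cDC1, was 52.0, 148 and 22.1 CPM in WT and 15.3, 8.23 and 6.96 in ITD. Cadm1, an adhesion molecule of cDC1, did not follow in every batch, with 133.6, 195.4 and 107.8 CPM in WT and 126.7, 128.2 and 156.0 in ITD. As a share of the C_CD8 library of the same genotype and batch, Id2 in NC_CD8 was 12.2%, 22.5% and 6.91% in WT and 7.55%, 3.39% and 3.43% in ITD, and Xcr1 was 7.92%, 12.1% and 2.06% in WT and 2.66%, 0.707% and 0.656% in ITD. Cadm1 was 20.1%, 25.0% and 14.5% in WT and 23.6%, 18.4% and 23.8% in ITD, higher in ITD in batches B and D. Id2 and Xcr1 were both highest in the WT library of batch C and lower in ITD in each batch. The 10 T cell markers summed to 132.5, 180.7 and 188.6 CPM in WT NC_CD8 and to 87.2, 70.9 and 83.5 in ITD, and the 10 NK cell markers to 137.9, 251.0 and 240.5 in WT and 110.3, 92.3 and 103.2 in ITD. Both were lower in ITD in each batch. So were the 10 pDC markers (658.4, 657.9 and 799.7 CPM in WT, 464.8, 600.8 and 681.9 in ITD). B cell markers fell as well (745.2, 1021 and 909.4 CPM in WT, 684.4, 901.5 and 780.0 in ITD), and so did plasma cell markers (278.8, 525.1 and 316.7 in WT, 185.3, 355.7 and 292.5 in ITD). The 10 cDC2 markers were higher in ITD in each batch (1411, 1425 and 1747 CPM in WT, 1716, 2082 and 2036 in ITD). Erythroid markers were lower in batches C and D (376.3 and 211.9 CPM in WT, 49.4 and 13.1 in ITD), as were those of red pulp macrophages (1071 and 303.8 in WT, 176.0 and 140.2 in ITD), while in batch B both were slightly higher in ITD (4.43 against 6.73 and 43.8 against 61.3). Monocyte markers were higher in ITD in each batch (1312, 1401 and 1638 CPM in WT, 1911, 1987 and 2033 in ITD). The part of cDC1 and of these other cells in the Id2 difference was not tested.

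**Figure D5:**
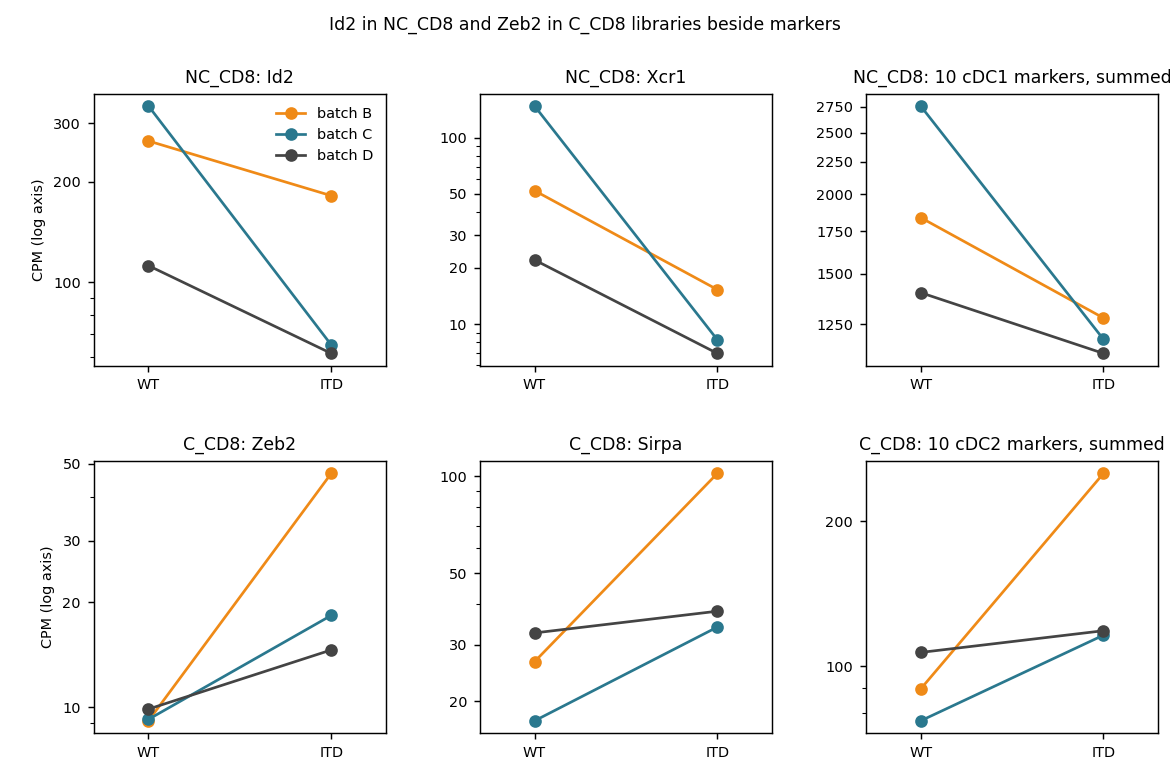
The upper row shows Id2, the cDC1 marker Xcr1 and 10 summed cDC1 markers in NC_CD8, and the lower row Zeb2, the cDC2 marker Sirpa and 10 summed cDC2 markers in C_CD8, each in CPM (log axis); lines join the WT and ITD library of a batch. In NC_CD8 all 3 measures are lower in ITD in each batch, and in C_CD8 all 3 are higher, with the ITD library of batch B highest (Zeb2 46.9, Sirpa 102).

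The other members gave smaller or less even differences. Tcf12 in NC_CD8 was 34.6, 44.3 and 53.3 CPM in WT and 53.1, 67.5 and 60.7 in ITD, higher within each batch with 1 ITD library just inside the WT range. Its log2 difference was 0.46 ± 0.18 (95% interval 0.11 to 0.81, adjusted p = 0.531) without the block and 0.47 ± 0.10 with it (adjusted p = 0.0214), and the blocked call was lost without the pair of batch B (0.127) or C (0.189). Tcf3 was 58.1, 61.1 and 59.4 CPM in WT NC_CD8 and 64.8, 65.9 and 66.2 in ITD, without overlap, but the difference of 0.14 (95% interval -0.20 to 0.48) did not pass in either fit (adjusted p = 0.964 and 0.553). Id1 in PDC rested on 5 and 22 reads in WT and 1 and 2 in ITD, too few for a fold. WT and ITD libraries also lay apart for Id1 in PDC and Esamlo and for Tcf12 and Zeb2 in Esamhi. Id3 and Zeb1 passed in no subset in either fit, and the Zeb1 difference farthest from 0 was -0.37, in Esamlo, with an interval of -0.87 to 0.14. Over 12 pairs, ITD was higher in 9 for Tcf3 and Tcf12, 3 for Id1, 6 for Id2, 4 for Id3 and 5 for Zeb1, counts given without a share of all genes.

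The Tcf4 to Id2 balance moved towards Tcf4 in the ITD libraries of both CD8+ subsets and of PDC. It was -2.05, -0.14 and 0.02 in ITD NC_CD8 against -2.78, -3.18 and -1.14 in WT (B, C and D), and -8.92, -9.06 and -8.45 in ITD C_CD8 against -9.66, -9.29 and -9.06 in WT. In PDC it was 0.82 and 4.38 in ITD against 0.68 and 3.30 in WT (A and B). The pair differences were 0.73, 3.05 and 1.16 in NC_CD8, 0.74, 0.23 and 0.60 in C_CD8 and 0.14 and 1.08 in PDC, and they were of both signs in Esamhi (0.10 and -0.19) and Esamlo (0.79 and -0.27). In each pair of NC_CD8 Id2 differed more in size than Tcf4, and in each pair of C_CD8 the log2 difference of Tcf4 exceeded that of Id2. As no test was made of the balance, these are descriptions of 12 pairs.

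Few genes of the lists linked to the factors passed between ITD and WT. In the unblocked fit, 2 of the 16 genes linked to Id2 passed in NC_CD8, both lower in ITD (Tlr3 -3.62 and Xcr1 -2.87, where 0.204% of all genes were called lower). Both are also among the cDC1 markers summed above. No other gene of the 6 lists passed in C_CD8 or NC_CD8. With the pair block, 3 of the 20 genes linked to Tcf4 were higher in ITD C_CD8 (1.19% of all genes): Spib (1.73), Blnk (0.97) and Runx2 (0.52), with a list median of 0.42. In NC_CD8 2 of those 20 were higher and 5 lower with the block (2.38% and 2.4% of all genes), with a median of -0.02. The lower ones included Siglech (-0.82), Ly6d (-1.01) and Cox6a2 (-1.36), at the same time as Tcf4 itself was higher. Of the genes linked to Id2, 7 were lower in ITD NC_CD8 with the block (2.4% of all genes, list median -0.32), and 1, Flt3 itself (-0.56), in ITD C_CD8 (0.0442% of all genes). Of the E protein targets of lymphocytes, the blocked fit called 1 in C_CD8, Il7r (1.62), and 3 higher and 1 lower in NC_CD8, the latter Hes1 (-1.90), a repressor induced by Notch. In the BMP and TGF-beta list it called 3 higher, Eng (1.12), Smad1 (0.48) and Smurf1 (0.38), and 1 lower, Smad3 (-1.08), in NC_CD8. Bhlhe40, a bHLH repressor outside the E protein family, was higher with the block in both (0.95 in C_CD8 and 0.70 in NC_CD8).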

How the data were processed

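RNA of flow-sorted spleen dendritic cells was purified with PicoPure columns, after Trizol in some samples, and made into cDNA with a SMART-seq v4 kit, per the labels' protocols. Per the submitters' processing notes, bcl2fastq 1.8.4, Bowtie2 and DESeq2 1.8.2 were used with the mm10 build. For the read counter and its annotation, nothing is stated in these notes. Raw read counts per Ensembl gene were deposited by the authors and analysed. The authors also deposited a normalized signal table, which was not used.

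Of 39017 genes, 18093 passed edgeR's filterByExpr (minimum count 10). edgeR 4.0.16 in R 4.3.3 fitted 10 group means to all 24 libraries with TMM scaling and the quasi-likelihood test, leaving 14 residual degrees of freedom, and p-values were adjusted over all genes tested by Benjamini-Hochberg, with a threshold of 0.05. Alternatives were DESeq2 1.42.0, its size factors in edgeR, no filter, the groups of a comparison alone, each library left out, the experiment batch as a block between WT subsets, and the 12 pairs of subset and batch as blocks between genotypes. The pairing comes from the batch given in the labels; deviations of paired libraries correlated with r from 0.134 to 0.646. Blocked values stand beside a result where they change its call. The SE of an edgeR difference is its absolute value divided by the square root of its F statistic. Intervals were formed from that SE with the normal quantile, which is slightly narrow for so few libraries. They are not adjusted for multiple tests and do not stand for the call by adjusted p. Per-library values are CPM, and pair differences are of log2 CPM with a prior count of 2. The balance adds 0.5 counts. Scripts were tested on simulated data. Libraries of a group differed by more than sampling noise (chi-square per degree of freedom 13.3 to 86.3). Nothing says whether batches used separate mice beyond their being independent experiments, so p-values measure the spread between these libraries.

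The 8 genes and the gene lists were chosen with earlier results of these data known. Named list genes are those of a fixed list past the threshold with the largest differences, at most 4 per list and comparison, and likeness names the 5 most and 3 least similar genes. Pair-block fits without 1 pair, RLE scaling with the pair block and transcript length were added after seeing the data.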

Additional observations from a re-analysis of the deposited data

Results flagged for a closer look

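For 2 of the genes, every WT and ITD pair of 1 subset moved one way and every pair of another subset the opposite way. Each subset has only 2 or 3 pairs, and no share of all genes with such a pattern is given. For Id2, the mean log2 difference between ITD and WT was -0.47 in PDC and -1.26 in NC_CD8, with both PDC pairs and all 3 NC_CD8 pairs down, and 0.21 in C_CD8 and 0.18 in Esamhi, with all their pairs up. PDC minus C_CD8 was thus -0.68, PDC minus Esamhi -0.65, C_CD8 minus NC_CD8 1.48 and NC_CD8 minus Esamhi -1.44. The Esamhi pair of batch C was up by 0.0041. For Zeb1, the mean difference was 0.05 in C_CD8, with all 3 pairs up, and -0.14 in NC_CD8 and -0.34 in Esamlo, with all pairs down. The C_CD8 pair of batch B was up by 0.0037 in Zeb1. C_CD8 minus NC_CD8 was 0.20 and C_CD8 minus Esamlo 0.39 for Zeb1. The difference between 2 subsets was itself not tested. The edgeR quasi-likelihood test for any variation of the ITD difference over the 5 subsets gave an adjusted p of 1 for both genes, and with the pair block 0.361 for Id2 and 0.638 for Zeb1.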

How the results depend on the processing

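Single values were recomputed 4879 times over 200 results: 4775 kept direction and side of the threshold, 60 lost the threshold, 43 gained it and 1 reversed. That 1 was Id1 in Esamhi minus PDC, which turned from 0.04 to -1.85 (adjusted p = 0.0398) with the experiment batch as a block. These subsets share no batch, so that blocked value runs through the CD8+ subsets. Of the values not called, 84 changed sign, over 54 results. The number of members called between ITD and WT within subsets was 0 without a block, 5 with the pairing of subset and batch as a replicate block and 2 by DESeq2. Averaged over subsets it was 0, and 2 with the replicate block. Leaving out 1 pair under the block, a check chosen after seeing the data, gave 2 to 5 calls within subsets and 1 to 2 averaged. Over all genes the batch block called 3018 for 1147, 2739 for 738 and 5165 for 2886 between Esamhi and NC_CD8, Esamlo and NC_CD8, and Esamlo and C_CD8. It called 7870 for 4777 between NC_CD8 and PDC, 7603 for 4528 between NC_CD8 and C_CD8, 6428 for 4254 between Esamhi and C_CD8 and 1151 for 119 between the CD11b+ subsets. Between ITD and WT the unblocked fit, the pair block and DESeq2 called 11, 45 and 16 genes in PDC, 3, 223 and 98 in C_CD8, 56, 866 and 227 in NC_CD8, 0, 9 and 2 in Esamhi, 1, 9 and 2 in Esamlo, and 65, 1236 and 295 averaged. The blocks changed no member call other than those printed. Per kilobase of the longest coding transcript, added after seeing the data, the balance of Tcf4 to Id2 was -7.97 (WT) and -7.44 (ITD) in C_CD8. It was -1.001 and 0.64 in NC_CD8, -4.73 and -4.78 in Esamhi and -4.17 and -3.91 in Esamlo. The other length shifts every library by the same amount, so the order of subsets could not change. The place relative to 0 can change. WT NC_CD8 of batch D moved from -1.14 to 0.23, and ITD NC_CD8 of batch C from -0.14 to 1.23. Id1, with 1 to 104 reads per library, is limited by depth. Leaving 1 library out of a group of 2 assumes that the other varies like the remaining groups.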
